A study of Mus musculus with 36 samples.

Results

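The genes described here are 7 members of 2 families of neural cell adhesion genes, Cntn1, Cntn3, Cntn4, Cntn5 and Cntn6 of the contactins and Cadm1 and Cadm2 of the cell adhesion molecules (Cadm). They were taken by symbol from a list drawn up with the densities of their DNA lesions already known, out of 49943 RefSeq genes of GRCm38 on chromosomes 1 to 19, X and Y, and every member had lesions in all 24 libraries. The libraries came from 2 male C57BL/6J mice of 24 months and covered bone marrow freed of red cells, brain, heart, liver, PBMCs isolated on Ficoll-Paque and motile sperm from the epididymal tail, with 2 replicates of each tissue. From each DNA sample, one library recorded single-strand breaks (SSBs), the nucleotides at which 1 DNA strand was interrupted, by SSiNGLe, and another recorded abasic (AP) sites, where a base was lost from the sugar backbone, by SSiNGLe-AP. Sperm DNA was purified with a kit of its own, so the effects of tissue and of extraction cannot be told apart for sperm. Younger mice and the RNA profiles were not analysed here.

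Contactins are immunoglobulin-type adhesion proteins held on the outer face of the cell membrane by a lipid anchor. They bind partners such as receptor tyrosine phosphatases (Ptprz1, Ptprg), Caspr proteins (the Cntnap genes) and the amyloid precursor family, and serve in axon growth, in myelinated axons and at synapses. The Cadm proteins, also called SynCAMs or nectin-like proteins, cross the membrane once and join cells by binding Cadm proteins of the neighbouring cell. In the brain they take part in the formation of synapses and in contacts of axons with glia, and Cadm1 is also made in spermatogenic cells and in epithelia.

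All 7 are long genes. Cntn5 spanned 1271 kb of chromosome 9 (chr9:9634223-10904775, minus strand), Cntn4 1023 kb (chr6:105677632-106700141, plus strand) and Cadm2 965.5 kb (chr16:66655416-67620917, minus strand). Cntn3 covered 401.3 kb (chr6:102163304-102564614, minus strand), Cntn6 370.7 kb (chr6:104492662-104863406, plus strand), Cadm1 332.1 kb (chr9:47530170-47862280) and Cntn1 290.8 kb (chr15:92051152-92341967, plus strand). Cntn3, Cntn6 and Cntn4 are neighbours on chromosome 6, with 1928 kb between the first pair and 814 kb between Cntn6 and Cntn4. No other protein-coding gene overlapped any of the 7.

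The depth of the SSB libraries was 225011 to 1041983 positions (median 410489) and that of the AP libraries 460719 to 963258 (median 739741). The 7 genes together, 4.65 Mb of sequence, held 303 to 1559 SSB positions in a library, 8097 in all, and 603 to 1361 AP positions, 12779 in all. These were 0.117 to 0.187% of the SSB positions and 0.127 to 0.176% of the AP positions of a library. At most 0.396% of the positions of a library were shared with its replicate. Values were expressed as LPKM-SSB and LPKM-AP, the number of lesion positions in a gene scaled to its length and to the depth of the library, so they give the share of a library's lesions that fell in a gene and not the number of lesions in a cell. Each library pooled the cells of a tissue, and the make-up of the tissue and the lesions of 1 cell type cannot be told apart.

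The lesions were single nucleotides scattered over the genes, and promoters show this at the level of sequence. Below are the 250 bases before a RefSeq transcription start (GRCm38, 5′ to 3′ on the strand of the gene) for Cntn1 (chr15:92050915-92051164, plus strand), Cadm2 (chr16:67620909-67621158, minus strand), Cntn5 (chr9:10904776-10905025, minus strand) and Cntn3 (chr6:102464668-102464917, minus strand), chosen to range from the window with the most lesions to one with none. Capitals mark each nucleotide at which an SSB or an AP site was deposited, on either strand, in any of the 24 libraries.
Cntn1: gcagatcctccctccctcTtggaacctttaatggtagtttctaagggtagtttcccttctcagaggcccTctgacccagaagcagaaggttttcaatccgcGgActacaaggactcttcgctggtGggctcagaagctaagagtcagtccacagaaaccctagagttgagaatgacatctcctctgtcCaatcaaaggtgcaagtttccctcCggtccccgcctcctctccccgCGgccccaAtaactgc
Cadm2: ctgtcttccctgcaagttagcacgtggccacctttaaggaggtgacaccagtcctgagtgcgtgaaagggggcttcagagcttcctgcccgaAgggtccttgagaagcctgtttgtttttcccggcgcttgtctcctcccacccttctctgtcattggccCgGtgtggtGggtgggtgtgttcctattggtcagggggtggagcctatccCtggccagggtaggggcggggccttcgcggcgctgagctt
Cntn5: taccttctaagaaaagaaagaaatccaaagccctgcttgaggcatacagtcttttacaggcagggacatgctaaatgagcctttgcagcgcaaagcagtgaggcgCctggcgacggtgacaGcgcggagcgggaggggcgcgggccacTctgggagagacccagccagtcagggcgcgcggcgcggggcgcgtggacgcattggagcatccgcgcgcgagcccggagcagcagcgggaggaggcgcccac
Cntn3: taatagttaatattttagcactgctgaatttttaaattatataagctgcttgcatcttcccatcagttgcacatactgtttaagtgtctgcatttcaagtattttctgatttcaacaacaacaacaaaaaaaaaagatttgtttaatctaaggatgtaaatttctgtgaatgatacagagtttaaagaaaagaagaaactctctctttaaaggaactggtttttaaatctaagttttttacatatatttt

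The Cntn1 window, 53.6% G and C, held 4 SSB and 7 AP positions at 10 nucleotides, more than any other window of these genes. That of Cadm2 (60.8% G and C) held 3 SSB and 2 AP positions, and that of Cntn5 (64.8%) 1 and 2. The window of Cntn3, which lies inside the annotated span of the gene, was only 26.4% G and C and held neither lesion in 24 libraries. RefSeq gave 10 such windows for 6 of the 7 genes and none for Cadm1. Together they covered 2226 bases with 13 SSB positions, an LPKM-SSB of 1.06 (95% Poisson interval 0.563 to 1.81), and 23 AP positions, an LPKM-AP of 1.17 (0.742 to 1.76). Both intervals lay above the pooled densities of the 7 genes summed, 0.315 for SSBs and 0.311 for AP sites, with counting error alone taken into account. The density in the promoters of all genes was not computed, and whether the excess is particular to these genes was not tested.

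The 2 lesions differed in the bases at which they were deposited, though G was frequent for both over all genes. In windows reaching 50 bases past the start as well, 16 SSB positions of the members lay at C in 8 cases, at G in 4 and at T in 4, with none at A. Of their 31 AP positions, 17 lay at G, 8 at A, 3 at C and 3 at T. Over the same windows of all genes, 39% of 60115 SSB positions lay at C, 35.1% at G, 20.3% at T and 5.58% at A, whereas 38.7% of 64229 AP positions lay at A, 36% at G, 15.9% at C and 9.29% at T. The windows themselves were 23.1% A and 26.9% C, counted over both strands. How far a deposited position stands from the lost or broken base is not given in the sources used here, so a base named here is that of the deposited position.

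All of the 7 genes but Cadm1 carried lesions at a lower density than most genes tested. The base content of whole genes, and how much of each gene could be mapped, were not computed. With the 12 libraries of an assay pooled, LPKM-SSB was 0.266 (95% Poisson interval 0.252 to 0.28) for Cadm2, 0.276 for Cntn5, 0.286 for Cntn4, 0.29 for Cntn3, 0.295 for Cntn6 and 0.396 (0.365 to 0.428) for Cntn1. Cadm1 reached 0.683 (0.646 to 0.722). For AP sites Cadm2 was again the lowest and Cntn1 and Cadm1 the highest, and the members between them changed order. LPKM-AP ran from 0.24 for Cadm2 and 0.241 for Cntn6, through 0.259 for Cntn5, 0.282 for Cntn3, 0.31 for Cntn4 and 0.396 for Cntn1, to 0.763 for Cadm1. The intervals of Cadm2, Cntn3, Cntn4, Cntn5 and Cntn6 overlapped for SSBs. For AP sites that of Cadm2 (0.229 to 0.25) lay within that of Cntn6 (0.225 to 0.259). Those of Cntn1 and Cadm1 stood clear of the other members and of each other in both assays.

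As a description, the median of all genes tested was 0.628 for LPKM-SSB and 0.638 for LPKM-AP. That of the tested genes of at least 200 kb, 1067 for SSBs and 1068 for AP sites, was 0.454 and 0.471. Cadm1 stood at percentile 90.3 of the long genes for SSBs and 93.5 for AP sites. The other members stood between percentiles 18.4 and 40.5 for SSBs and between 14.7 and 38.8 for AP sites. The Cadm genes held both the highest and the lowest SSB level of the 7. The interval of Cadm2, however, overlapped those of Cntn3, Cntn4, Cntn5 and Cntn6.

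Of the family members that were not chosen, Cntn2, a contactin of axons and glia, had a mean LPKM-SSB of 0.896 and an LPKM-AP of 0.998. Cadm3, the neuronal SynCAM3, had 0.91 and 0.777, and Cadm4, found on glia, 0.688 and 0.46. These genes are short, 22.5 to 36.2 kb, with as few as 3 or 4 SSB positions in a library. Among the longer partners and relatives, Cntnap2, which encodes Caspr2, had 0.274 and 0.276, and Cntnap5a 0.277 and 0.265. Ptprg, the receptor phosphatase that binds several contactins, had 0.596 and 0.671.

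**Figure D1:**
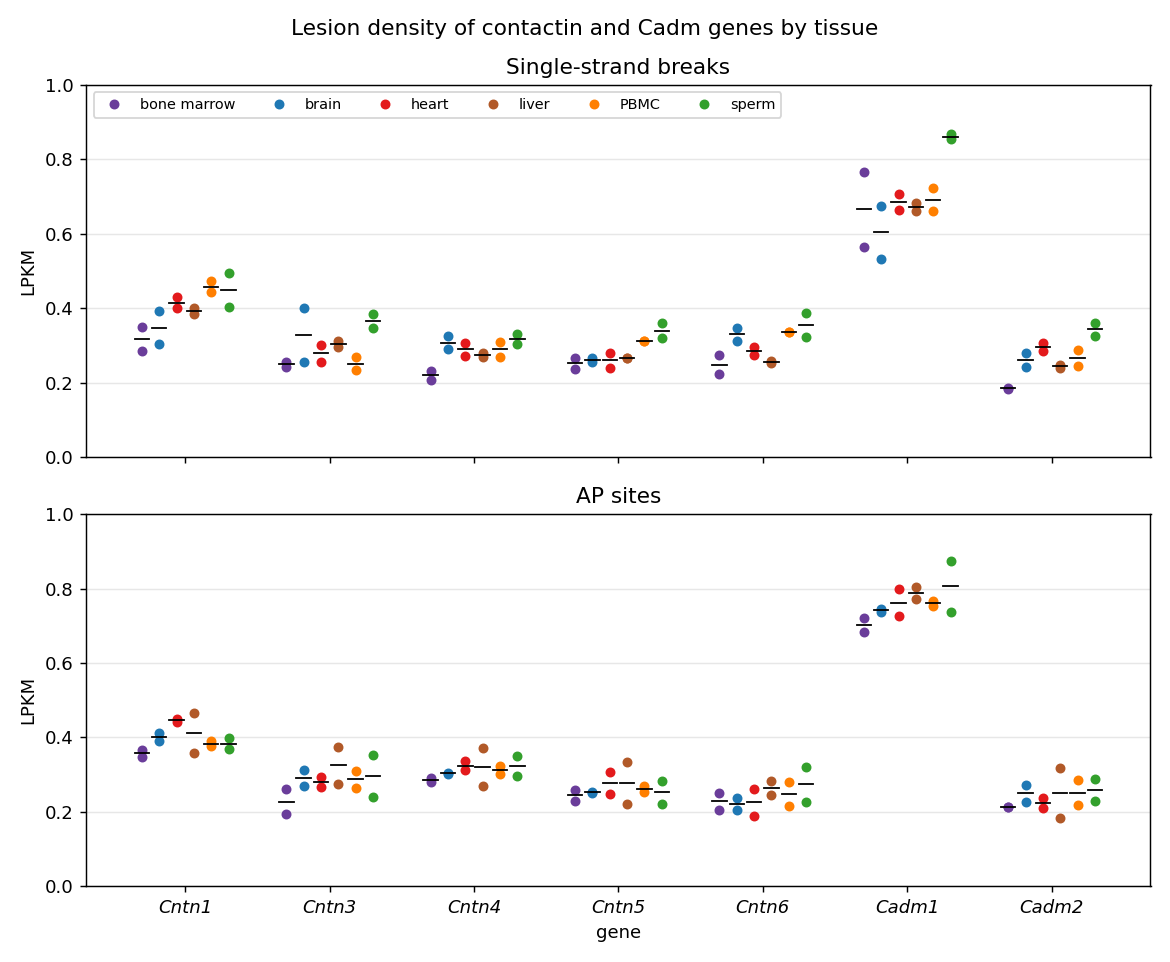
LPKM-SSB and LPKM-AP of each of the 7 genes in every library, by tissue; points are the 2 replicates of a tissue and short lines their mean. The 2 sperm libraries lay above the 2 bone marrow libraries for every gene in the SSB panel, and Cadm1 lay above the other members in both assays.

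The densities by tissue were among the values that chose these genes, and they are given as a description. For SSBs, Cadm2, which encodes SynCAM2, had an LPKM-SSB of 0.187 and 0.184 in the 2 bone marrow libraries, 0.248 and 0.24 in liver and 0.281 and 0.241 in brain. It had 0.244 and 0.288 in PBMCs, 0.306 and 0.286 in heart and 0.326 and 0.361 in sperm. Both bone marrow values were below every other library, and both sperm values above every other library. The spread of Cadm2 over the 12 libraries was 19.7% of its mean, where counting error alone would give 10.4%.

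Cntn5, the longest member and a contactin of the auditory pathway, had 0.237 and 0.267 in bone marrow, 0.255 and 0.267 in brain, 0.24 and 0.28 in heart and 0.266 and 0.265 in liver. PBMCs stood at 0.311 in both libraries and sperm at 0.319 and 0.359. Bone marrow, brain, heart and liver overlapped, and PBMCs and sperm lay above all of them.

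For Cntn4, which guides olfactory axons, the low tissue was bone marrow, at 0.232 and 0.207 against 0.269 to 0.33 in the other 10 libraries. Sperm gave 0.305 and 0.33, brain 0.325 and 0.29, and the 2 overlapped. Cntn6, a contactin linked to motor coordination, ran from 0.223 in bone marrow replicate 1 to 0.387 in sperm replicate 2, with brain (0.313 and 0.347) and PBMCs (0.336 and 0.335) overlapping or close to sperm (0.324 and 0.387).

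Cntn1, the contactin of the junctions that flank the nodes of Ranvier, was lowest in bone marrow (0.285 and 0.35) and highest in PBMCs (0.443 and 0.472) and sperm (0.404 and 0.494), and brain, at 0.304 and 0.392, overlapped bone marrow. Cntn3, a contactin that promotes neurite outgrowth, had the least ordered values. Its lowest was 0.233 in PBMC replicate 1 and its highest 0.4 in brain replicate 1, and the other brain library stood at 0.256. Cadm1, at 0.867 and 0.854 in sperm, was above the 10 other libraries, which ran from 0.533 in brain replicate 1 to 0.766 in bone marrow replicate 2. Its 2 bone marrow libraries, at 0.565 and 0.766, lay further apart than the means of any pair of tissues other than sperm.

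Summed over the 7 genes, LPKM-SSB was 0.253 and 0.276 in bone marrow, 0.316 and 0.309 in brain, 0.314 and 0.322 in heart, 0.304 and 0.3 in liver, 0.321 and 0.339 in PBMCs and 0.364 and 0.401 in sperm. Brain, the tissue in which most of these genes are known to be expressed, overlapped heart. The mean of sperm was 1.45 times that of bone marrow, with ratios of single libraries from 1.32 to 1.59. For Cadm2 the ratio was 1.85 (1.74 to 1.96), and it lay between 1.29 and 1.47 for the others. The median ratio of the members was 1.43. It was 0.831 over the 33508 of 38486 genes tested that had an SSB position in bone marrow. Over 1066 such genes of at least 200 kb it was 1.11. Genes without an SSB position in bone marrow have no finite ratio and were left out, including those with positions in sperm.

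Both sperm libraries lay above both bone marrow libraries for 7 of the 7 members, where 11.6% of all genes tested and 38.8% of the long genes did so. Both brain libraries lay above both bone marrow libraries for 4 of 7, beside 14.4% of all genes and 36.1% of the long genes. In the edgeR fit over the 6 tissues, 1 member (Cadm2) passed an adjusted p of 0.05, beside 0.125% of 38486 genes. Nothing is read from these counts, since the same densities chose the genes, and the call of Cadm2 was not made without bone marrow replicate 1 (adjusted p = 0.151) or by DESeq2 (adjusted p = 0.54). Of the 24 partners and relatives, Cntnap2 (edgeR adjusted p = 0.0194) and Chl1 (0.0303) passed in the same fit, and Cntn2, Cadm3 and Cadm4 did not.

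For AP sites the tissues were closer together. Summed LPKM-AP was 0.272 and 0.295 in bone marrow, 0.307 and 0.308 in brain, 0.305 and 0.33 in heart, 0.321 and 0.308 in PBMCs and 0.297 and 0.347 in sperm. The 2 liver libraries stood furthest apart, at 0.377 and 0.281, and held the highest and, after bone marrow replicate 1, the lowest sum. Cadm2 had 0.317 and 0.184 in liver, 0.213 and 0.212 in bone marrow and 0.229 and 0.287 in sperm, so that its liver replicates enclosed all other libraries. The ratio of sperm to bone marrow was 1.14 for the sum (1.01 to 1.28). It ranged from 1.03 for Cntn5 to 1.3 for Cntn3.

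Sperm and bone marrow did not overlap for 4 of 7 members (Cntn1, Cntn4, Cadm1 and Cadm2), beside 12.4% of all genes and 22.8% of the long genes, and brain and bone marrow for 5 of 7, beside 13.8% and 21.3%. For Cntn1 the gap was between 0.367 and 0.368. The edgeR fit over tissues called 0 of the 7 and 0% of 41374 genes (1219 at an unadjusted p under 0.05; 0 called by DESeq2). The spread of Cntn1 over the 12 AP libraries was 9.61% of its mean and that of Cadm1 6.53%, both below the 11.2% and 7.58% of counting error.

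**Figure D2:**
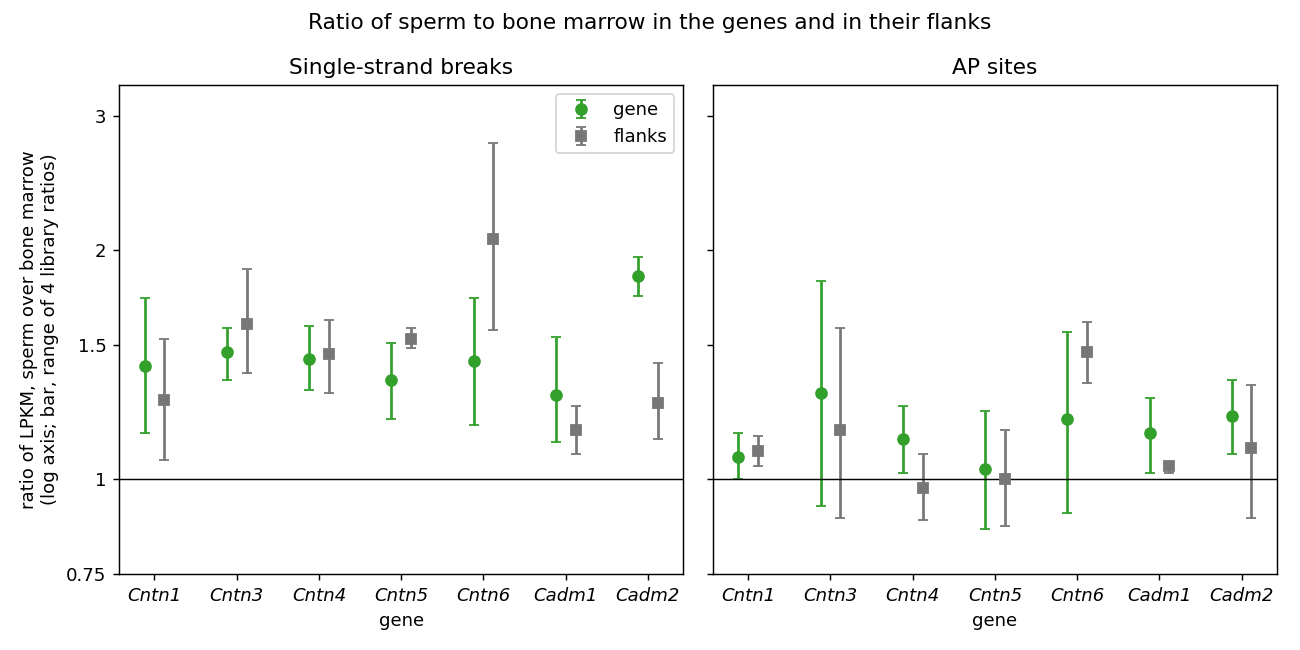
Ratio of mean LPKM in sperm to mean LPKM in bone marrow for each gene and for its flanks, for SSBs and AP sites; lines span the 4 ratios of single libraries. SSB ratios lay above 1 for all genes and flanks, with Cadm2 at 1.85 in the gene and 1.26 in its flanks, and the AP ratio of each gene was lower than its SSB ratio.

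The sequence on either side of the genes was not itself counted in choosing them, and it was examined for the same tissue difference. It adjoins the chosen genes, however, and sperm against bone marrow was the widest SSB difference of their sum. Nothing is therefore read from the counts of flanks below. The flanks were 0.5 gene lengths on each side. Both sperm libraries lay above both bone marrow libraries in the SSB flanks of 7 of 7 members, where 11.6% of 34719 flanks and 31.3% of those of long genes did so. The flanks of Cntn6 showed it most, at 0.112 and 0.16 in bone marrow and 0.252 and 0.31 in sperm, a ratio of 2.07 (1.57 to 2.77). Those of Cntn3 had a ratio of 1.6 and those of Cntn5 1.53, each above the ratio of the gene itself (1.47 and 1.35). In Cadm2 the gene exceeded its flanks, which gave 0.201 and 0.167 in bone marrow and 0.238 and 0.227 in sperm, a ratio of 1.26 (1.13 to 1.42). Whether gene and flank ratios differed was not tested. For AP sites the 4 libraries did not overlap in the flanks of 3 of 7 members (Cntn1, Cntn6 and Cadm1), beside 12.3% of all flanks and 19.9% of those of long genes.

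Tested over all 6 tissues with edgeR, the SSB flanks of 0 of the 7 members passed an adjusted p of 0.05, beside 0.0374% of 34719 flanks (13 called, 1679 at an unadjusted p under 0.05, 2 called by DESeq2). The adjusted p was 0.068 for Cntn5, 0.111 for Cntn6 and 0.12 for Cntn4, and 0.631 to 0.998 for the other 4. These values moved widely with single libraries and settings. That of Cntn5 ran from 0.0211 without heart replicate 1 to 0.969 without bone marrow replicate 1, and was 0.55 without bone marrow replicate 2, 0.784 after thinning to equal depth, 0.311 without TMM and 1 by DESeq2. It passed the threshold in edgeR without brain replicate 1 (0.0428), brain replicate 2 (0.0232), heart replicate 1 or liver replicate 1 (0.0476), and without the filter on low values (0.0154). Cntn6 passed without brain replicate 1 (edgeR adjusted p = 0.0428) and stood at 0.997 without bone marrow replicate 1. Cntn4 passed without the filter (0.0435) and ranged from 0.0742 to 0.647 without single libraries. With stricter filtering, at nonzero values in 80% of the libraries, all 3 passed. For AP sites, 0 of 7 were called by edgeR, beside 0.0027% of 37078 flanks (1 called, 1150 at an unadjusted p under 0.05, 0 called by DESeq2).

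The genes were also compared with their own surroundings. The densities of the genes themselves were among the values that chose the members. The ratios and p-values of single members below are therefore given as a description, for both assays. For SSBs, 5 of the 7 members were higher than their flanks at an adjusted p of 0.05 in edgeR, within libraries and with length taken into account, as were 11.5% of 40956 genes and 49.5% of genes of at least 200 kb. The median log2 ratio of gene to flank was 0.38 over the members, 0.23 over all genes and 0.19 over long genes. The share of members called was not far from that of long genes, and it is no result about these 7.

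Cadm2 had a pooled LPKM-SSB of 0.266 against 0.201 in its flanks, and its ratio in single libraries ran from 0.933 to 1.7 with 11 of 12 above 1. The log2 ratio was 0.40 (SE 0.061, adjusted p = 2.57e-09, edgeR). Cntn5, at 0.276 against 0.212, was above its flanks in 12 of 12 libraries (1.1 to 1.82), with a log2 ratio of 0.38 (SE 0.053, edgeR adjusted p = 2.24e-11). With flanks of 0.25 gene lengths, its log2 ratio was 0.98. Cntn6 was higher in 12 of 12 libraries as well, with a log2 ratio of 0.40 (SE 0.091, edgeR adjusted p = 0.000173).

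Cntn3 exceeded its flanks in 12 of 12 libraries, by a log2 ratio of 0.38 (SE 0.088, edgeR adjusted p = 0.000288), but with flanks of 0.25 gene lengths it was 0.24 and was not called (adjusted p = 0.129). Cadm1 was higher by 0.29 (SE 0.063, edgeR adjusted p = 6.91e-05) in 10 of 12. Cntn1, at 0.396 in the gene and 0.386 in the flanks, had a log2 ratio of 0.035 (SE 0.083, adjusted p = 0.834), and Cntn4 one of 0.069 (SE 0.055, adjusted p = 0.434).

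AP sites gave 5 of 7 members higher than their flanks too, beside 20.6% of 43084 genes and 57.3% of the long genes. The members' median log2 ratio was 0.34, against 0.30 for all genes and 0.21 for long ones. Cadm2 had the largest of the members, with a pooled LPKM-AP of 0.24 against 0.168, a ratio of 1.22 to 1.76 in 12 of 12 libraries and a log2 ratio of 0.51 (SE 0.051, edgeR adjusted p = 4.74e-21). Cntn3 (0.46, SE 0.071), Cntn5 (0.39, SE 0.043) and Cntn4 (0.34, SE 0.043) were above their flanks in 12 of 12 libraries as well, with edgeR adjusted p from 9.62e-18 to 3.48e-09, and Cadm1 (0.32, SE 0.048, adjusted p = 1.17e-09) in 11 of 12.

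Cntn6 (0.15, SE 0.076, edgeR adjusted p = 0.133) and Cntn1 (-0.10, SE 0.064, adjusted p = 0.242) were not called for AP sites. With the shorter flanks Cntn4 was not called either (0.10, edgeR adjusted p = 0.127), and Cntn5 had a log2 ratio of 0.94 in place of 0.39. Under TMM normalization Cntn1 was called lower than its flanks (-0.23, adjusted p = 0.00303). So of the contactins, Cntn6 passed for SSBs alone and Cntn4 for AP sites alone; whether the 2 assays differed there was not tested.

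**Figure D3:**
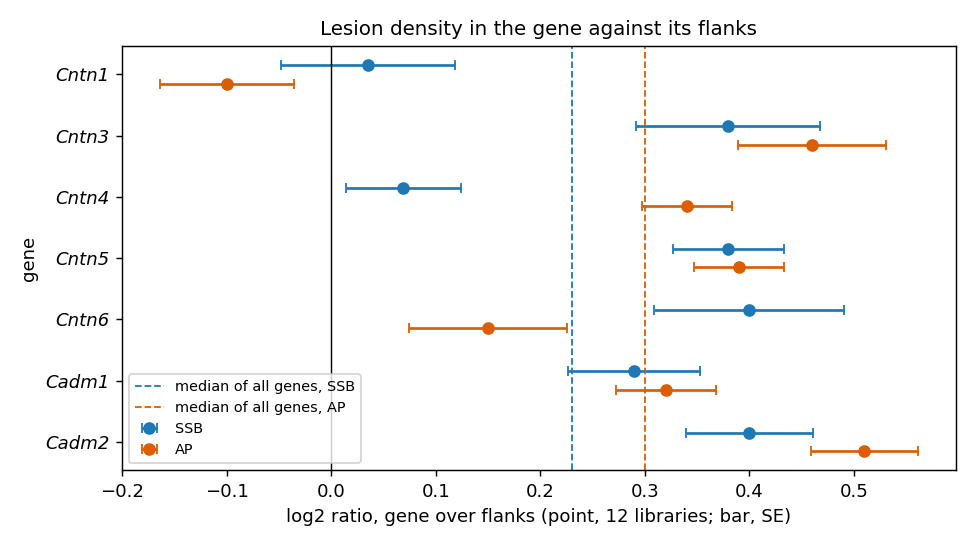
Log2 ratio of lesion density in each gene to that in its flanks, from the edgeR fit, for SSBs and AP sites; bars are 1 SE, from 12 libraries an assay, and dashed lines mark the median of all genes. Cadm2 stood at 0.40 for SSBs and 0.51 for AP sites, and Cntn1 near 0 in both.

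Among the relatives, Cadm3 was denser in SSBs than its flanks (log2 ratio 0.46, edgeR adjusted p = 0.049), and for AP sites Cntn2 (0.63) and Cadm3 (0.42) were called higher and Cadm4 lower (-0.62, adjusted p = 0.00864). Of 24 partners and relatives, 14 were called for SSBs and 17 for AP sites, all of them higher in the gene. Beside them, 11.5% and 20.6% of all genes were called higher, and 49.5% and 57.3% of genes of at least 200 kb. Nothing is read from these counts. The called partners included App, the amyloid precursor gene whose product binds contactins (1.01 and 1.08 on the log2 scale), Nrcam (0.93 and 1.22), Cntnap5a (0.95 and 1.06) and Ptprg (0.51 and 0.57). These examples were picked after their values were seen.

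Along the genes, the position of lesions was compared between the 5′ and the 3′ part, each 0.5 of the length of the annotated span. The span of Cntn4 begins at chr6:105677632, and its RefSeq start windows lie inside it, at chr6:106118515-106118764 and chr6:106118692-106118941. Much of the 5′ part of Cntn4 therefore lies before these starts, and a gradient along its transcripts was not tested. Cntn4 was denser toward its 3′ end. It held 725 SSB positions in the 5′ part and 889 in the 3′ part, so the 5′ share was 44.9% (95% exact binomial interval 42.5 to 47.4), and the 3′ part was higher in 9 of 12 libraries. The log2 ratio of 5′ to 3′ was -0.30 (SE 0.073, edgeR adjusted p = 0.00235); DESeq2 gave -0.31 and an adjusted p of 0.0527. For AP sites these parts held 1197 and 1600 positions, a 5′ share of 42.8% (41 to 44.7), with the 3′ part higher in 12 of 12 libraries and a log2 ratio of -0.42 (SE 0.056, edgeR adjusted p = 1.55e-11).

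Cntn4 was the 1 of 6 members called in this test in each assay, beside 7.28% of 25415 genes for SSBs (3′ higher in 3.92%) and 17.5% of 26017 for AP sites (3′ higher in 11.6%). Among long genes the 3′ part was called higher in 24.4% for SSBs and 42.7% for AP sites. Cntn6 leaned the other way for SSBs, with 336 positions in the 5′ part and 267 in the 3′ part, a log2 ratio of 0.33 (SE 0.12) and an edgeR adjusted p of 0.0707. Among 16 partners with a known strand, 2 were called for SSBs and 6 for AP sites. Cntnap2 was denser in its 3′ part (-0.35 for SSBs, -0.49 for AP sites) and Cntnap5b in its 5′ part (0.32 and 0.27), and Nrcam, Nfasc, Nectin3 and Aplp2 were denser in the 3′ part for AP sites (-0.41 to -0.92). The remaining log2 ratios of the members lay between -0.21 and 0.12 for SSBs and between -0.17 and 0.091 for AP sites. The strand of Cadm1 was not given in the RefSeq promoter table used here, and it was left out of the fits on strand and on the 5′ and 3′ parts.

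Cut into 10 equal stretches, Cntn3 and Cntn5 had both their highest and their lowest stretch at the same place in the 2 assays, Cntn4 its highest and Cntn6 its lowest, and Cntn1, Cadm1 and Cadm2 neither. Cntn5 was lowest in its sixth stretch, with 110 SSB positions (LPKM-SSB 0.157) and 181 AP positions (LPKM-AP 0.161) in 127.1 kb, and highest in its eighth, at 0.349 and 0.338. Cntn6 was lowest in the seventh, at 0.166 and 0.128. In Cntn3 the first stretch was the highest (0.402 and 0.395) and the one after it the lowest (0.181 and 0.203). The stretches divide the annotated spans, and the RefSeq starts used here for Cntn3 and Cntn4 lie inside those spans.

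Cntn4 rose to its highest values in the last stretch, 0.39 for SSBs and 0.437 for AP sites, from lows of 0.211 in the fourth and 0.226 in the third. Cadm2 was the most even of the 7 for SSBs, with 1.4 times between its highest (the first) and lowest stretch (the last); for AP sites its highest was the sixth and its lowest the third. Cadm1, counted from its lower coordinate, ran from 0.551 in the fifth stretch to 0.889 in the seventh for SSBs and from 0.59 in the fourth to 0.925 in the eighth for AP sites. Cntn1 was lowest in the fifth stretch and highest in the seventh for SSBs, and lowest in the first and highest in the next for AP sites. These are sums over 12 libraries of 34 to 394 positions a stretch and were not tested.

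**Figure D4:**
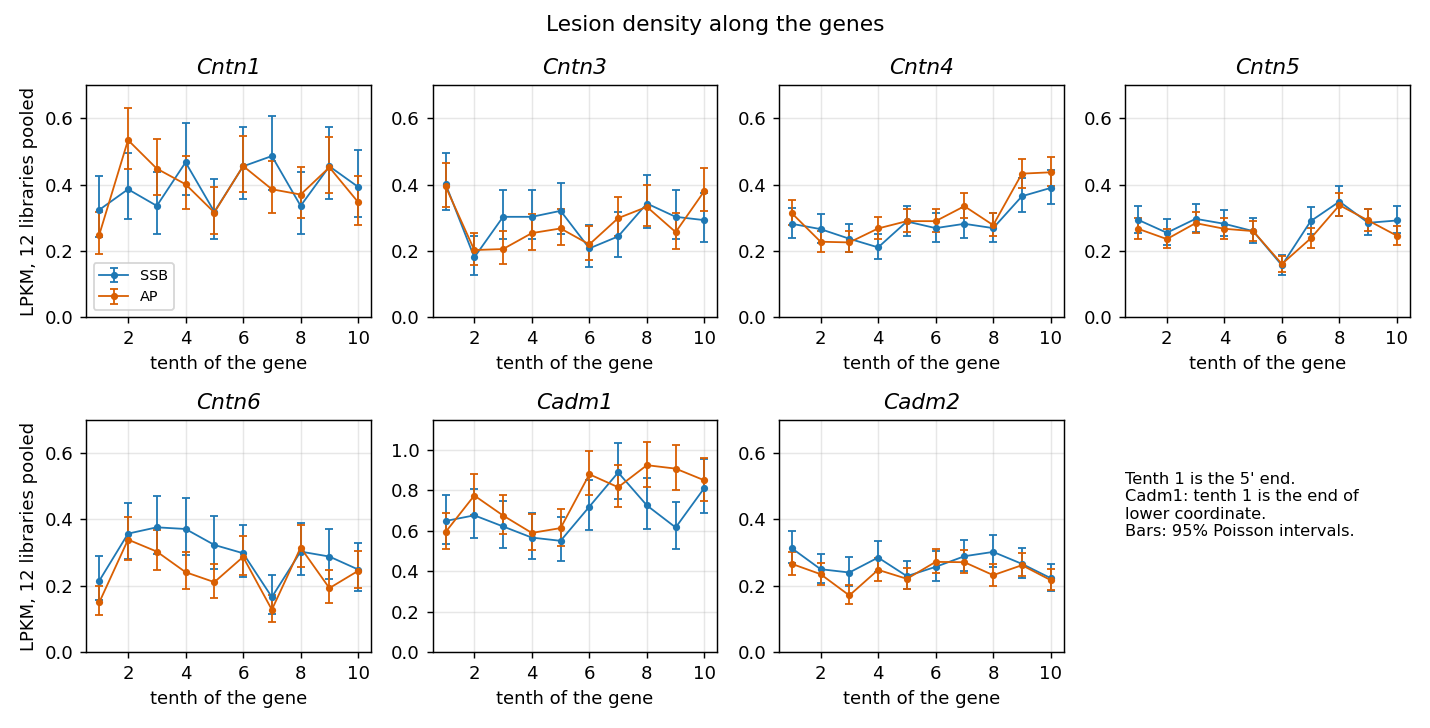
LPKM-SSB and LPKM-AP in 10 equal stretches of each gene, 12 libraries an assay pooled, from the 5′ to the 3′ end (Cadm1 from its lower coordinate); bars are 95% Poisson intervals. The curves of the assays dipped together in the sixth stretch of Cntn5 and the seventh of Cntn6, and both rose toward the 3′ end of Cntn4.

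Strand was compared because a lesion lies on 1 strand, and the strand opposite to the gene's own is the template of transcription. Over all genes, SSBs were slightly more frequent on the gene's own strand (median log2 ratio 0.18), and edgeR called 2.57% of 25415 genes, 638 of them with the own strand higher and 16 with the other. Of the members with a known strand 0 of 6 were called, beside 26.6% of long genes. Cntn5 came nearest, in the less common direction. It held 897 SSB positions on its own strand and 1039 on the other, an own-strand share of 46.3% (44.1 to 48.6). Over the libraries that share ran from 40.6% in liver replicate 2 to 53.7% in PBMC replicate 2 with a median of 46.8%, and the other strand was higher in 9 of 12. The log2 ratio was -0.21 (SE 0.067, edgeR adjusted p = 0.0568).

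With single libraries left out of the edgeR fit, the ratio of Cntn5 ran from -0.24 to -0.17 and its adjusted p from 0.0304 to 0.261. It passed the threshold without bone marrow replicate 1 (0.0346), PBMC replicate 2 (0.0304) or sperm replicate 1 (0.0421), the 3 libraries in which its own strand was higher, and was furthest from it without liver replicate 2 (0.261) or liver replicate 1 (0.147). DESeq2 gave an adjusted p of 0.0987. Under TMM, which brought the median of all genes to 0.027, its log2 ratio was -0.37 with an adjusted p of 6.37e-05. Cntn3 leaned to its own strand, with 354 against 288 positions (log2 ratio 0.30, SE 0.12, edgeR adjusted p = 0.179), and Cntn6 too (0.23, SE 0.12, adjusted p = 0.407). Cntn1 (0.077), Cadm2 (0.071) and Cntn4 (-0.0093) were near 0. Of 16 partners with a known strand, Ptprg (0.44), the L1-family gene Chl1 (0.49), Nectin3 (0.67) and Aplp2 (1.03) were called, each with the own strand higher.

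For AP sites edgeR called 0 of 6 members and 0.0577% of 26017 genes (15, with 1706 at an unadjusted p under 0.05 and 0 by DESeq2). The largest of the members were Cntn6 (log2 ratio 0.22, SE 0.10, adjusted p = 0.719) and Cntn4, with 1483 positions on its own strand and 1314 on the other (0.17, SE 0.057, adjusted p = 0.298).

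Whether the strand ratio differed in brain, where contactins are most expressed, was tested as an interaction of strand with brain against the other 10 libraries. For SSBs 0 of 6 members and 0% of 25415 genes were called by edgeR (705 at an unadjusted p under 0.05) and 0 by DESeq2. Cntn1 had the widest difference. Its own-strand share was 43.8 and 41.8% in the 2 brain libraries and 44.2 to 62.5% in the others, a log2 difference of -0.63 (SE 0.31, 95% interval -1.23 to -0.027) with an edgeR adjusted p of 1. Cntn6 had -0.55 (-1.12 to 0.021) and Cntn5 -0.004 (-0.34 to 0.33). For AP sites 0 of 6 and 0% of 26017 genes were called (875 at an unadjusted p under 0.05; 0 by DESeq2), and the members' differences ran from -0.41 for Cntn1 to 0.40 for Cntn3. At 21 to 130 SSB positions of a member such as Cntn1 or Cntn3 in a library, these intervals were wide. No difference was called after adjustment over all genes.

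**Figure D5:**
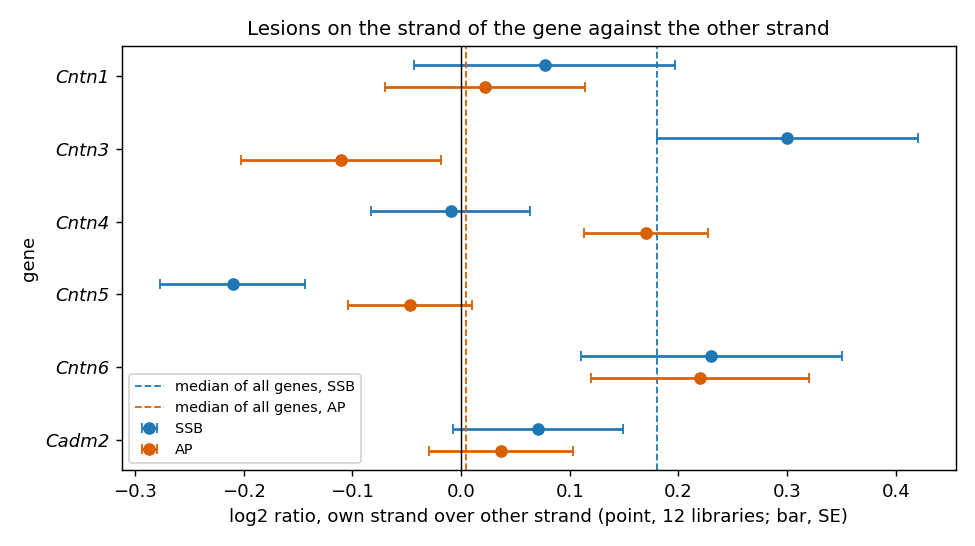
Log2 ratio of lesion positions on the gene's own strand to those on the other strand, from the edgeR fit over 12 libraries an assay; bars are 1 SE and dashed lines mark the median of all genes. For SSBs Cntn5 stood at -0.21 and Cntn3 at 0.30, on opposite sides of 0, and for AP sites Cntn4 stood at 0.17.

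The 2 assays were applied to the same 12 DNA samples, and as a description no member differed between them by the edgeR test (0 of 7, beside 0.696% of 42956 genes). Cntn6 had more SSBs than AP sites, relative to depth, in 11 of 12 samples (median ratio 1.2), and Cadm1 more AP sites in 10 of 12 (median ratio 0.896). The log2 ratios of SSB to AP were 0.23 for Cntn6 (SE 0.092), -0.23 for Cadm1 (SE 0.068) and -0.22 for Cntn4 (SE 0.063), with edgeR adjusted p of 0.32, 0.0873 and 0.0682. The median log2 ratio of SSB to AP in this fit was -0.078 over all genes and -0.13 over genes of at least 200 kb. Among genes of at least 200 kb 12.1% were called in either direction, and among the partners Ptprg was (log2 ratio -0.26, edgeR adjusted p = 0.00343).

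Single nucleotides seldom recurred. The 8097 SSB positions of the 7 genes fell on 8065 nucleotides, of which 32 (0.397%) were hit in more than 1 library and 0 in 3, and the 12779 AP positions fell on 12609 nucleotides, of which 167 (1.32%) recurred and 3 were found in 3 libraries. Those 3 lay in Cntn4 and Cntn5. Of 20625 nucleotides with either lesion, 49 (0.238%) had both, 5 of them within the same DNA sample. A count above 1 was deposited at 39 SSB positions and 53 AP positions, and the highest was 3.

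The members varied together over the SSB libraries to different degrees. Pearson's r between pairs of members over 12 libraries ran from 0.0099 to 0.84 with a median of 0.631 over 21 pairs, and for AP sites from -0.279 to 0.88 with a median of 0.547. All share the library, its depth and its tissue, and these values are descriptions. The genes with a profile most like the summed SSB density of the members, among 936 with at least 50 positions a library on average, were Ptprd (r = 0.945), a receptor phosphatase of synapses, the Caspr gene Cntnap5a (0.936), Lrmda (0.908), Naaladl2 (0.899) and the polarity gene Pard3b (0.891), each 903 kb or longer.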

How the data were processed

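SSBs (SSiNGLe) and AP sites (SSiNGLe-AP) were profiled in 24 libraries from 2 mice of 24 months, 6 tissues with 2 replicates each. Deposited by the authors were, library by library, the nucleotides with a lesion, each with its strand and raw count; nothing was normalized or pooled. The submitters' processing notes name mm10 and GRCm38; aligner and filters are not given in the sources used here.

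Following the paper, a nucleotide added 1 to a gene whatever its count. Positions were counted over the whole span of 49943 RefSeq genes of GRCm38 (names, spans and promoter sequences from RefSeq). The paper's main analysis counted lesions in exons, and it repeated the analysis with whole genes. LPKM scaled these positions by 1e+09 over the product of the length (bp) and the library total. Exons were not used. Gene strand was known for the 27025 genes with a promoter entry.

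Tests used edgeR 4.0.16 (quasi-likelihood; R 4.3.3) over all genes nonzero in at least 20% of the libraries, with Benjamini-Hochberg adjustment and a threshold of 0.05. Tissue was an F test over 6 tissues with TMM. Strand, 5′ against 3′ part and gene against flank were compared within libraries (library as a term, no TMM), and assays within DNA samples. Intervals are 95% Poisson or exact Clopper-Pearson intervals and cover counting error only. The p-values rest on the dispersion fitted over these libraries, from 2 mice. In the comparisons within libraries, the SEs of the members were close to the counting error of their pooled positions. Those p-values therefore say little about variation between mice. Alternatives were DESeq2 1.42.0, other normalization, filters, thinning to equal depth, sums of counts, shorter flanks, a replicate block, and leaving out a tissue or library; leaving out each sperm and bone marrow library for the summed ratio was chosen after seeing the data. The fits were also run on simulated counts, drawn with little or no variation beyond counting error. That run cannot show whether the p-values hold under variation between mice. Counting and figures used pandas 2.3.3 and numpy 2.4.6 in Python 3.11.15, with scipy 1.17.1 for intervals and matplotlib 3.10.9 for plots.

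The members, their relatives and the comparisons were chosen with earlier results of these data known. Named are the 7 members, Cntn2, Cadm3, Cadm4, partners called in a test, of which 4 stand as examples for gene against flank after their values were seen, and the 5 genes most like the summed members. Tissue identity was not checked against marker RNA, since the RNA profiles were not used here.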

Additional observations from a re-analysis of the deposited data

How the results depend on the processing

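Depth limits single members to 21 to 371 SSB positions and 42 to 310 AP positions in a library, and 2 replicates a tissue leave few degrees of freedom. The members called for 5′ against 3′ parts and for gene against flank numbered the same in both assays when any 1 library was left out, 1 and 5. Members called over tissues for SSBs numbered 1, but 0 by DESeq2, after thinning to equal depth (adjusted p of Cadm2 = 0.245), without sperm (0.29) and without bone marrow (0.989), and 0 to 1 without single libraries. For SSB flanks over tissues 0 were called, 2 without a filter, 3 with genes nonzero in 80% of libraries (Cntn6 0.0366, Cntn4 0.0167, Cntn5 0.0165), and 0 to 2 without single libraries. For SSB strand 0 were called, 1 (Cntn5) under TMM, with the 80% filter (adjusted p = 0.0458) and with summed counts (0.0477), and 0 to 1 without single libraries. For 5′ against 3′ parts, SSBs went from 1 to 0 under DESeq2 and AP sites from 1 to 2 under TMM (Cntn5 0.16, adjusted p = 0.0241). Between assays 0 were called, 2 without a filter (Cntn4 0.0283, Cadm1 0.0438), 1 with summed counts (Cntn4 0.0396), and 0 to 1 without single libraries (Cntn4 was called without brain replicate 1, liver replicate 2 or sperm replicate 1). The causes of these changes were not tested.

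Log2 values that changed sign were not called in either setting. Under TMM these were SSB strand of Cntn1 (-0.085) and Cadm2 (-0.091), SSB strand in brain of Cntn5 (0.022), SSB 5′ against 3′ of Cadm2 (0.0016), SSB gene against flank of Cntn4 (-0.045) and Cntn1 (-0.079), and AP 5′ against 3′ of Cntn1 (0.076). Under DESeq2 they were SSB strand of Cntn4 (0.0015), SSB 5′ against 3′ of Cntn5 (-0.008) and Cadm2 (0.0078), and the assay ratio of Cntn3 (0.063; 0.064 without TMM). With shorter flanks they were SSB Cntn4 (-0.09), AP Cntn6 (-0.044) and AP Cntn1 (0.088), and without a filter the assay ratio of Cntn5 (-0.00013). Without single libraries the sign turned for Cntn3 assay (-0.072 to 0.013), Cntn5 assay (-0.036 to 0.043), Cadm2 5′ against 3′ SSB (-0.053 to 0.021), Cntn5 5′ against 3′ SSB (-0.046 to 0.053), Cntn1 strand AP (-0.06 to 0.082), Cntn4 strand SSB (-0.039 to 0.02), Cadm2 strand brain AP (-0.27 to 0.0022), Cntn4 strand brain AP (-0.065 to 0.27), Cntn6 strand brain AP (-0.69 to 0.13) and Cntn5 strand brain SSB (-0.11 to 0.05).

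Over all genes, 48 were called over tissues for SSBs, but 4 by DESeq2, 15 without TMM, 6 after thinning, 16 with summed counts, 7 without sperm, 3 without bone marrow, and 4 (bone marrow replicate 1) to 65 (PBMC replicate 2) without single libraries. For SSB flanks 13 became 2, 34 (80% filter), 3 after thinning, 3 without sperm and 2 without bone marrow. DESeq2 gave 677 in place of 1850 (SSB 5′ against 3′), 4583 in place of 6994 and 8026 in place of 12161 (gene against flank), 2576 in place of 4545 (AP 5′ against 3′), 0 in place of 15 (AP strand), 0 in place of 1 (AP flanks) and 38 in place of 299 (assay; 180 without TMM). TMM gave 107 in place of 654 for SSB strand. The share of calls that were higher went under TMM from 97.6 to 70.1% (SSB strand, own strand), 67.6 to 52.9% and 73 to 60% (gene against flank, SSB and AP) and 33.5 to 50.4% (AP 5′ against 3′), and without TMM from 20.4 to 61.7% (assay). Median log2 ratios of gene to flank over all genes went from 0.23 to 0.13 and 0.30 to 0.18 under TMM. The ratio of sperm to bone marrow for the sum stayed at 1.38 to 1.52 (SSB) and 1.05 to 1.22 (AP) with any 1 of these libraries left out. With the replicate number as a block, 1 member was called over tissues for SSBs, and 0 for SSB flanks, AP sites and AP flanks; it changed no call of a member, and 59 genes were called over tissues for SSBs in place of 48. Deviations from tissue means of same-numbered libraries correlated at -0.0343 to 0.0219 over 15 tissue pairs (SSB) and -0.186 to 0.13 (AP). Whether same-numbered libraries came from 1 mouse is not stated in the labels.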
